A study of Mus musculus with 12 samples.

Results

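The genes of the autophagy machinery were followed in 3T3-L1, an embryonic mouse fibroblast line used as a model of fat cell formation because hormones convert it to adipocytes. The 37 genes were chosen by symbol for their known roles, with earlier results of these data known. All 37 were found once among the 55487 genes of the expression table. They fall into the Ulk1 kinase complex (5 genes), the Pik3c3 lipid kinase complex (6), Atg9a with the Atg2 and Wipi proteins (5), the Atg conjugation enzymes and Atg4 proteases (10), the Lc3 and Gabarap family (5), receptors (3), and Tfeb with the lysosomal membrane proteins Lamp1 and Lamp2 (3). The cells had been infected with lentivirus encoding a short hairpin, either scrambled (shScram) or directed at Fto (shFTO), the gene of an m6A RNA demethylase, and had been selected with puromycin. Each line was sampled as preadipocytes (Pre), at mitotic clonal expansion (MCE) after induction with hormones, and after differentiation in insulin medium (Diff), with 2 libraries in each of the 6 groups. The study's methods, which name cells treated with rhein, describe fragmented total RNA as the input for RNA sequencing. They do not describe the libraries of the hairpin lines separately. Which of the designed hairpins was used, and whether the 2 libraries of a group came from separate cultures, was not given in the sources used here, so the p-values measure only the spread between these libraries. Rhein-treated cells and m6A immunoprecipitates were not analysed here.

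Autophagy encloses cytoplasm in a double membrane and delivers it to lysosomes. The Ulk1 complex starts the process when nutrients are short, the Pik3c3 complex marks the forming membrane with a phosphoinositide, Wipi proteins bind that lipid, and Atg9a vesicles and Atg2 proteins supply membrane. Ubiquitin-like reactions run by Atg7, Atg3 and the Atg12-Atg5-Atg16l1 complex then attach Lc3 and Gabarap proteins to the membrane, where receptors such as Sqstm1 bring in cargo. In preadipocytes autophagy is known as a requirement for normal adipocyte formation, since loss of Atg5 or Atg7 impairs it.

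Tfeb, the transcription factor of lysosomal and autophagy genes, recognises an element whose core is CACGTG. Because that core reads alike on both strands, 1 search covered both. Among RefSeq promoters of GRCm38.p6, from 250 bases before to 50 bases after a start site, 31 of the 37 genes were matched, with 36 promoters, and 5 of these (13.9%) held the core. Of all 32851 promoters 7.15% held it, and of 38 promoters of genes for lysosomal enzymes and the proton pump 36.8% did. The stretches around the core are printed because all 5 genes are described below, with the core in capitals, read 5′ to 3′ on the strand of the gene.
Lamp1 promoter, chr8:13159088-13159163, strand +: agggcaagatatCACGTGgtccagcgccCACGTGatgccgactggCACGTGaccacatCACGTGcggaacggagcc
Atg3 promoter, chr16:45158723-45158775, strand +: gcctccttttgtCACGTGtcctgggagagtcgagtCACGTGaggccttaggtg
Atg5 promoter, chr10:44268313-44268342, strand +: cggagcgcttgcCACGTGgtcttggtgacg
Atg7 promoter, chr6:114670952-114670981, strand +: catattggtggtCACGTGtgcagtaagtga
Atg14 promoter, chr14:47568418-47568447, strand -: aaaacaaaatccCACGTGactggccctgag
Lamp1 carried 4 copies between 61 and 15 bases before its start site, Atg3 carried 2, and the others 1. The starts used for Atg3, Atg7 and Atg14 lie inside the span that GENCODE gives these genes. A match describes these letters only and shows no binding.

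Expression was given as TPM, the share of a transcript among all transcripts after correction for length, so levels of different genes can be compared, but the sequencing depth behind them is unknown. Between 20853 and 24018 genes were above 0 in a library. Fto in shFTO cells was 9.96% of its mean in shScram cells in preadipocytes, 10.8% at MCE and 10.1% after differentiation (exact permutation within stages, two-sided p = 0.00926, the smallest it can give). 2 libraries were doubtful. Replicate 1 of shScram preadipocytes stood apart from replicate 2, with a correlation of log2(TPM + 1) of 0.939 across genes against 0.990 to 0.993 in the other groups, and the treatment entry of replicate 1 of shScram after differentiation named the knockdown although its title names shScram. The title was followed, and that library held 73.5 TPM of Fto, next to 70.8 TPM in its partner. The labelled fibroblast identity was checked by markers. Fibroblast and preadipocyte markers summed to between 9237 and 14411 TPM in all libraries. Adipocyte markers summed to 133 to 192 TPM in shScram preadipocytes, 377 to 378 TPM at MCE and 1520 to 1530 TPM after differentiation. In shFTO cells the sums were 268 to 300, 267 to 275 and 418 to 457 TPM. Most of the preadipocyte sums was Lpl, at 112 to 174 TPM in shScram and 247 to 281 TPM in shFTO preadipocytes, while Adipoq was listed at 0 in all 4 libraries. After differentiation Cebpa alone among these markers was higher in shFTO cells, at 5.19 to 5.77 TPM against 3.77 to 5.01 TPM. Markers of macrophages, endothelium and epithelium summed to 0.60 to 4.93 TPM, 3 of the 8 reached 1 TPM in any library, and Adgre1 was listed at 0 in all. In these bulk libraries fewer cells of a type and less RNA per cell cannot be told apart, and the part of unequal differentiation in the differences between the lines was not tested.

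**Figure D1:**
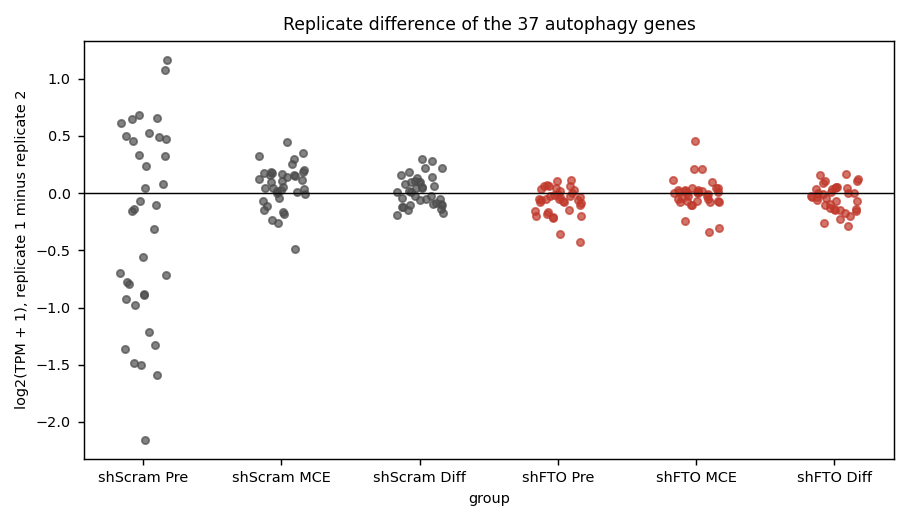
Difference between the 2 replicates (replicate 1 minus replicate 2, log2(TPM + 1), vertical axis) of each of the 37 autophagy genes (points) in the 6 groups (horizontal axis). The points spread widely in shScram preadipocytes, with a median absolute difference of 0.655, and lie near the zero line in the other groups, with medians of 0.0487 to 0.151.

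The autophagy genes themselves were split by the doubtful preadipocyte library. In shScram preadipocytes 9 of the 37 genes differed by more than 2-fold between the replicates on the (TPM + 1) scale, whereas in the other 5 groups 0 did. Atg101 was at 15.2 and 44.2 TPM in these libraries, Atg9a at 12.8 and 38.2 TPM, Map1lc3a at 18.7 and 86.8 TPM and Sqstm1 at 403 and 1040.2 TPM, replicate 1 first. In each of these 4 genes replicate 2 lay nearer to the shFTO preadipocytes. Called differences of single genes that rest on shScram preadipocytes are therefore given with and without replicate 1. In brackets, a value given without a library after an adjusted p is a log2 difference. Leaving out replicate 1 leaves 1 library in that group, which then adds nothing to the estimate of spread.

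All 37 genes were expressed. The mean over the 12 libraries ran from 983 TPM for Lamp1, a glycoprotein of the lysosomal membrane, to 5.68 TPM for Optn, a receptor for ubiquitinated cargo. Their median was 29.8 TPM, against 15.0 TPM over all 15968 genes tested. The 6 genes above 100 TPM were Lamp1, Sqstm1 (630 TPM), Lamp2 (526 TPM), Gabarap (432 TPM), Gabarapl1 (143 TPM) and Map1lc3b (122 TPM). They encode a cargo receptor, lysosomal membrane proteins and members of the Lc3 and Gabarap family. Below 10 TPM were 5 genes, namely Optn, Tfeb (6.86 TPM), the conjugation enzyme Atg10 (7.53 TPM) and the proteases Atg4d (8.86 TPM) and Atg4c (9.53 TPM). The other 26, with all of the Ulk1 and Pik3c3 complexes, lay in between.

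The first comparison asked whether knockdown of Fto changed the expression of these genes. Averaged over the stages, 13 of 37 genes (35.1%) were higher in shFTO cells and 1 (2.70%) was lower in limma's test with Benjamini-Hochberg adjustment (adjusted p under 0.05). Of all 15968 genes tested, 24.5% were higher and 18.3% lower. The higher genes were Map1lc3a, Atg9a, Atg13, Atg101, Wipi1, Atg2b, Gabarapl2, Optn, Gabarap, Atg5, Uvrag, Ambra1 and Becn1, and the lower gene was Atg14. The median difference of the 37 genes on the log2(TPM + 1) scale was 0.21, beside 0.060 over all genes tested. Without replicate 1 of shScram preadipocytes 18 genes were higher and 3 lower, while 56.6% of all genes tested were called. Without its partner 29 were called, beside 67.4% of all genes, and without replicate 1 of shScram after differentiation 11 were, beside 35.8%.

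Stage by stage, fewer genes passed. In preadipocytes 8 genes (21.6%) were higher and 1 was lower (all genes, 15.9% and 12.3%). At MCE the counts were 3 (8.11%) and 1, with 10.5% and 7.26% over all genes, and after differentiation again 3 and 1, with 11.9% and 9.31% over all genes. Wipi1 passed at all 3 stages, Atg14 and Atg2b passed at 2, and 24 of the 37 passed at none. The shares called at MCE and after differentiation were below those of all genes. Leaving out replicate 1 of shScram preadipocytes, whose spread entered every test, gave 8, 20 and 16 called genes at the 3 stages, beside 29.0%, 41.0% and 45.7% of all genes. When replicate 1 of shScram after differentiation was left out, 3 genes were called at that stage, beside 11.2% of all genes.

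**Figure D2:**
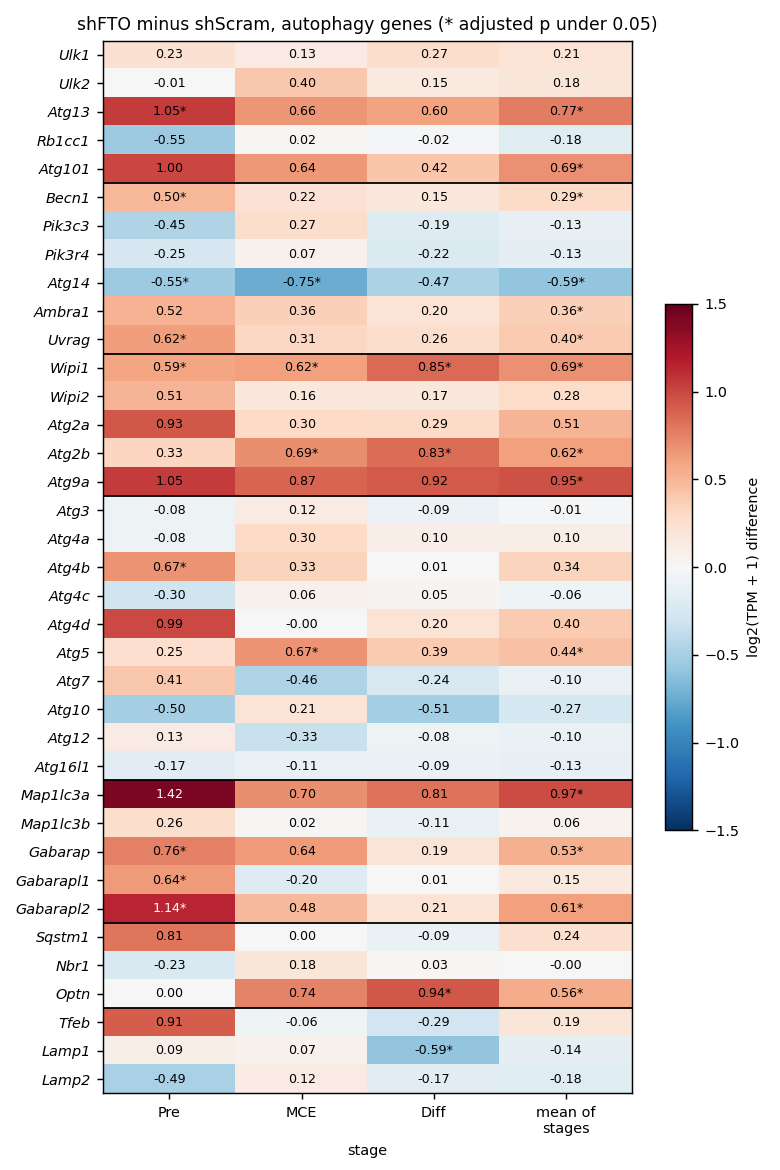
Difference in log2(TPM + 1), shFTO minus shScram, of the 37 genes (rows, grouped by role, black lines between roles) in preadipocytes, at MCE, after differentiation and averaged over the stages (columns). Asterisks mark adjusted p under 0.05 in limma's test, and a reader sees 13 red cells and 1 blue cell with asterisks in the last column.

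Separation of the libraries gave a similar count. At each of the 3 stages both shFTO libraries lay above both shScram libraries in 13 of 37 genes, a pattern that 16.6% of all genes tested had. They were Atg13, Atg101, Becn1, Ambra1, Uvrag, Wipi1, Wipi2, Atg2a, Atg2b, Atg9a, Map1lc3a, Gabarap and Gabarapl2. For Atg14 alone the shFTO libraries lay below at each stage (10.1% of all genes). In 7 genes, Atg13, Wipi1, Atg2a, Atg2b, Atg9a, Map1lc3a and Gabarap, the lowest of the 6 shFTO libraries exceeded the highest of the 6 shScram libraries, beside 6.14% of all genes. The opposite separation was found in 0 of 37 genes (2.96% of all genes).

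Within the Ulk1 complex, the 2 regulatory subunits Atg13 and Atg101 were higher in shFTO cells and the kinases were not called. Atg13, which links the kinase to its scaffold, measured 15.4 and 30.1 TPM in preadipocytes, 26.2 and 23.1 TPM at MCE and 30.1 and 31.1 TPM after differentiation in shScram cells. In shFTO cells it measured 44.8 and 46.7 TPM in preadipocytes, 39.8 and 39.4 TPM at MCE and 46.3 and 47.5 TPM after differentiation. The shFTO libraries were above every shScram library. The difference averaged over the stages was 0.77 ± 0.14 (SE, log2(TPM + 1), adjusted p = 0.00272) and 0.62 without replicate 1 of shScram preadipocytes, and it passed under 20 of 20 alternative settings. In preadipocytes the difference was 1.05 ± 0.25 (adjusted p = 0.0165), or 0.59 without that library. Atg101, the partner that stabilises Atg13, was at 15.2 and 44.2 TPM in preadipocytes, 64.9 and 76.4 TPM at MCE and 47.2 and 44.1 TPM after differentiation in shScram cells. It was at 54.3 and 52.1 TPM in preadipocytes, 111 and 111 TPM at MCE and 63.4 and 59.0 TPM after differentiation in shFTO cells. At each stage the shFTO pair was higher, but the lines overlapped across stages since both were highest at MCE. Its averaged difference was 0.69 ± 0.21 (adjusted p = 0.0296), passed under 9 of 20 settings (adjusted p 1.8e-07 to 0.0789) and was 0.44 without replicate 1 of shScram preadipocytes. The kinase genes Ulk1 and Ulk2 had averaged differences of 0.21 and 0.18 (adjusted p = 0.244 and 0.107), and the scaffold gene Rb1cc1 had -0.18 (adjusted p = 0.424). Without replicate 1 of shScram preadipocytes the log2 differences of Ulk1 and Ulk2 were 0.061 and 0.23. Ulk1 ranged over 17.8 to 42.7 TPM, Ulk2 over 15.8 to 26.7 TPM and Rb1cc1 over 16.5 to 56.7 TPM in the 12 libraries.

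In the Pik3c3 complex the accessory subunits moved in opposite directions. Atg14, the subunit that directs the kinase to the site of autophagosome formation, measured 16.5 and 13.8 TPM in preadipocytes, 11.2 and 12.9 TPM at MCE and 15.0 and 14.6 TPM after differentiation in shScram cells. The shFTO cells held 8.75 and 11.5 TPM in preadipocytes, 6.83 and 6.70 TPM at MCE and 10.6 and 10.2 TPM after differentiation. Both shFTO libraries were below both shScram libraries at each stage. The averaged difference was -0.59 ± 0.092 (adjusted p = 0.00119, -0.55 without replicate 1 of shScram preadipocytes), and it passed under all 20 of 20 settings. In preadipocytes it was -0.55 ± 0.16 (adjusted p = 0.0356, -0.43 without replicate 1 of shScram, passed under 7 of 21 settings), at MCE -0.75 ± 0.16 (adjusted p = 0.0123), and after differentiation -0.47 ± 0.16 (adjusted p = 0.0705). Uvrag, which occupies the place of Atg14 in another form of the complex that acts on endosomes, went the other way, with 23.5 and 25.3 TPM in preadipocytes, 13.2 and 11.7 TPM at MCE and 18.4 and 15.0 TPM after differentiation in shScram cells. It measured 37.8 and 38.3 TPM in preadipocytes, 15.6 and 15.7 TPM at MCE and 20.5 and 19.8 TPM after differentiation in shFTO cells. The shFTO pair was higher at each stage, and the gap was widest in preadipocytes, where the difference was 0.62 ± 0.13 (adjusted p = 0.0118, 0.57 without replicate 1 of shScram). Averaged over the stages it was 0.40 ± 0.076 (adjusted p = 0.00336, 0.38 without that library).

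The scaffold subunit Becn1 measured 48.0 and 50.5 TPM in preadipocytes, 41.0 and 49.3 TPM at MCE and 45.9 and 44.4 TPM after differentiation in shScram cells. In shFTO cells it measured 69.7 and 70.4 TPM in preadipocytes, 50.8 and 54.6 TPM at MCE and 50.4 and 50.2 TPM after differentiation. Its difference was 0.50 ± 0.12 in preadipocytes (adjusted p = 0.0169, 0.46 without replicate 1 of shScram) and 0.29 ± 0.068 averaged over the stages (adjusted p = 0.00865, 0.28 without that library). The Becn1 binding partner Ambra1 was at 12.9 and 21.4 TPM in preadipocytes, 22.9 and 20.9 TPM at MCE and 24.0 and 23.9 TPM after differentiation in shScram cells. It reached 23.0 and 25.7 TPM in preadipocytes, 29.4 and 27.2 TPM at MCE and 27.4 and 27.9 TPM after differentiation in shFTO cells, higher at each stage. The averaged difference was 0.36 ± 0.12 (adjusted p = 0.0353, 0.24 without replicate 1 of shScram preadipocytes), and it passed under 9 of 20 settings (adjusted p 3.45e-05 to 0.0892). The catalytic subunit Pik3c3 and its regulatory kinase Pik3r4 were not called, with averaged differences of -0.13 and -0.13 (adjusted p = 0.311 and 0.226). Becn1 shares 3104 of its 7065 exon bases with Cntd1 on the other strand (mean 0.390 TPM), and Uvrag shares 1589 of 9035 with an antisense gene (mean 0.0757 TPM). Whether reads were counted by strand was not stated, so reads of such genes could not be told apart.

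**Figure D3:**
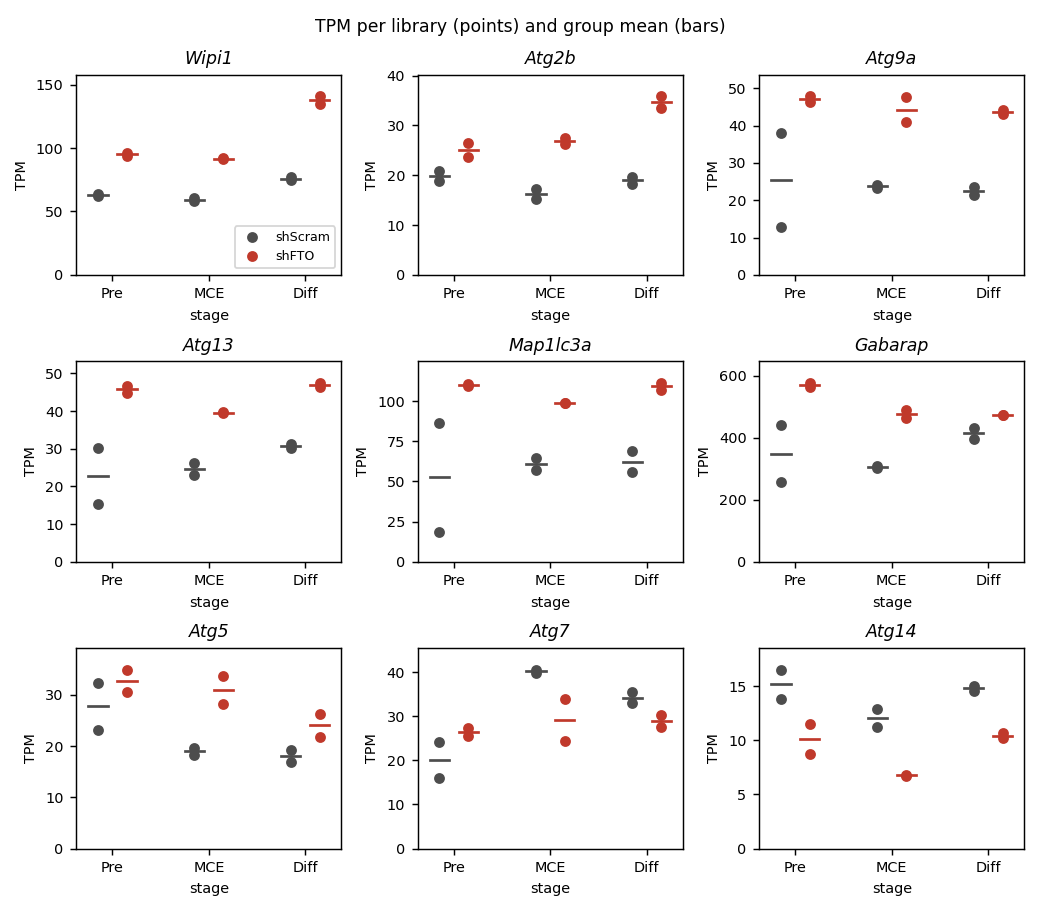
TPM (vertical axes, from 0) of 9 genes in each library (points) with the group mean (bars) at the 3 stages (horizontal axes), shScram in grey and shFTO in red, n = 2 per group. The red points of Wipi1, Atg2b, Atg9a, Atg13, Map1lc3a and Gabarap are all above the grey ones, those of Atg14 are below them at each stage, and those of Atg7 lie below the grey points at MCE and after differentiation.

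In all 5 genes of membrane supply and lipid binding both shFTO libraries lay above both shScram libraries at each stage (16.6% of all genes). Averaged over the stages 3 of them passed as higher, beside 24.5% of all genes. Wipi1 (ENSMUSG00000041895, chromosome 11, 109573331 to 109611967 in GRCm38), which binds the phosphoinositide on the forming membrane, measured 63.9 and 61.9 TPM in preadipocytes, 60.3 and 58.3 TPM at MCE and 77.2 and 74.6 TPM after differentiation in shScram cells. The shFTO libraries held 94.1 and 96.2 TPM in preadipocytes, 91.9 and 91.5 TPM at MCE and 134 and 141 TPM after differentiation. No shFTO library came down to the highest shScram library. Its difference was 0.59 ± 0.10 in preadipocytes (adjusted p = 0.00423, 0.61 without replicate 1 of shScram), 0.62 ± 0.10 at MCE (adjusted p = 0.00275) and 0.85 ± 0.10 after differentiation (adjusted p = 0.000405). The averaged difference was 0.69 ± 0.056 (adjusted p = 2.8e-05), a 1.61-fold higher level on the (TPM + 1) scale, and it passed under all 20 of 20 settings. It was 0.69 without replicate 1 of shScram preadipocytes, and after differentiation it was 0.88 without the doubtful shScram library.

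Atg2b, one of a pair of lipid transfer proteins, measured 18.8 and 20.8 TPM in preadipocytes, 17.3 and 15.2 TPM at MCE and 18.3 and 19.7 TPM after differentiation in shScram cells. It measured 23.6 and 26.5 TPM in preadipocytes, 26.2 and 27.5 TPM at MCE and 33.4 and 35.9 TPM after differentiation in shFTO cells. The lines did not overlap, and the gap was wider at the later stages. The difference was 0.33 ± 0.13 in preadipocytes (adjusted p = 0.0820), 0.69 ± 0.13 at MCE (adjusted p = 0.00611) and 0.83 ± 0.13 after differentiation (adjusted p = 0.00199, 0.78 without the doubtful shScram library). Whether the difference grew was not shown, since its change between stages did not pass (adjusted p = 0.263 for the step to MCE and 0.812 for the next). Atg9a (ENSMUSG00000033124, chromosome 1, 75180860 to 75192196), the scramblase of the vesicles that seed the membrane, measured 12.8 and 38.2 TPM in preadipocytes, 23.4 and 24.0 TPM at MCE and 23.6 and 21.4 TPM after differentiation in shScram cells. In shFTO cells it stayed at 48.0 and 46.5 TPM in preadipocytes, 47.7 and 41.0 TPM at MCE and 44.1 and 43.1 TPM after differentiation. The averaged difference was 0.95 ± 0.22 (adjusted p = 0.00789) with all 20 of 20 settings past the threshold, and 0.70 without replicate 1 of shScram preadipocytes. At single stages it was 1.05 ± 0.38, 0.87 ± 0.38 and 0.92 ± 0.38 (adjusted p = 0.0640, 0.155 and 0.119). Without that library the values were 0.30, 0.87 and 0.92 (adjusted p = 0.0638, 3.59e-05 and 2.21e-05), and over all settings the adjusted p ran over 3.5e-07 to 0.356, 3.59e-05 to 0.445 and 2.21e-05 to 0.343. A transcript gene on the same strand, Gm29253, shares 1832 of the 5762 exon bases of Atg9a and averaged 3.06 TPM, so Atg9a values are uncertain to that extent. Atg2a, whose shFTO libraries also lay above all shScram libraries, had an averaged difference of 0.51 ± 0.23 (adjusted p = 0.102), and the related phosphoinositide binder Wipi2 had 0.28 ± 0.15 (adjusted p = 0.148). These were, with replicate 1 of shScram preadipocytes left out, 0.24 and 0.12, and both passed. Both lay lowest in replicate 1 of shScram preadipocytes, at 8.20 and 26.7 TPM for the 2 replicates of Atg2a and 26.5 and 53.2 TPM for Wipi2.

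Among the 10 genes of conjugation and Lc3 processing, 1 was higher averaged over the stages and 0 were lower, beside 24.5% and 18.3% of all genes. Atg5 and Atg7 were examined in full because the study's discussion links them to FTO in adipogenesis. Atg5 (ENSMUSG00000038160, chromosome 10, 44268358 to 44364291), which joined to Atg12 directs the attachment of Lc3, measured 32.3 and 23.2 TPM in preadipocytes, 19.7 and 18.3 TPM at MCE and 19.3 and 16.8 TPM after differentiation in shScram cells. The shFTO cells had 30.6 and 34.9 TPM in preadipocytes, 28.3 and 33.6 TPM at MCE and 21.8 and 26.3 TPM after differentiation. The lines overlapped in preadipocytes and were apart at the later stages. The difference was 0.25 ± 0.18 in preadipocytes (adjusted p = 0.314), 0.67 ± 0.18 at MCE (adjusted p = 0.0353) and 0.39 ± 0.18 after differentiation (adjusted p = 0.174). Averaged it was 0.44 ± 0.11 (adjusted p = 0.0104), or 0.51 without replicate 1 of shScram preadipocytes, which was the higher of its pair. The MCE call held under 7 of 21 settings (adjusted p 0.00179 to 0.227).

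Atg7 (ENSMUSG00000030314, chromosome 6, 114643097 to 114860614), the activating enzyme of both conjugation reactions, measured 16.1 and 24.1 TPM in preadipocytes, 40.6 and 39.8 TPM at MCE and 35.4 and 33.0 TPM after differentiation in shScram cells. With the hairpin against Fto it measured 27.4 and 25.5 TPM in preadipocytes, 33.9 and 24.5 TPM at MCE and 27.5 and 30.3 TPM after differentiation. The shFTO pair was above shScram in preadipocytes and below it at the later stages. The difference was 0.41 ± 0.20, -0.46 ± 0.20 and -0.24 ± 0.20 at the 3 stages (adjusted p = 0.149, 0.161 and 0.464), none of which passed, and -0.10 ± 0.12 averaged (adjusted p = 0.522). Without replicate 1 of shScram preadipocytes, in which Atg7 was lower than in its partner, the MCE difference had an adjusted p of 0.0167, within a range of 0.0167 to 0.655 over all settings. Atg4b, the main protease that trims Lc3 proteins for attachment, was at 14.0 and 25.1 TPM in preadipocytes, 23.2 and 25.2 TPM at MCE and 36.5 and 34.4 TPM after differentiation in shScram cells. It was at 31.3 and 29.8 TPM in preadipocytes, 30.2 and 31.1 TPM at MCE and 37.7 and 33.7 TPM after differentiation in shFTO cells, apart from shScram at the first 2 stages. Its preadipocyte difference was 0.67 ± 0.22 (adjusted p = 0.0497), passed under 3 of 21 settings (adjusted p 9.92e-06 to 0.349) and was 0.27 without replicate 1 of shScram. The remaining 7 genes were called at no stage. Their averaged differences ran from -0.27 for Atg10, which joins Atg12 to Atg5, to 0.40 for Atg4d, with -0.014 for the Lc3-conjugating enzyme Atg3, -0.10 for Atg12, -0.13 for Atg16l1, 0.10 for Atg4a and -0.063 for Atg4c. Reads of Atg4a and Atg4d are uncertain, since 55.8% of the 40-base stretches of Atg4a occur in the pseudogene Atg4a-ps (mean 0.633 TPM) and Atg4d shares 1405 of 7264 exon bases with Kri1 (mean 23.8 TPM).

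The Lc3 and Gabarap proteins, which are bound to the membrane and recruit cargo receptors, gave 3 of 5 genes higher averaged over the stages, beside 24.5% of all genes. Together the family summed to 659 ± 241 TPM (SD, n = 2) in shScram preadipocytes, 672 ± 17.4 at MCE and 849.5 ± 7.72 after differentiation. In shFTO cells the sums were 1062 ± 6.37, 894 ± 25.5 and 956 ± 14.6 TPM. The shFTO pair had the higher sum at each stage. Gabarap was the most abundant member everywhere, at 45.4% to 54.2% of the sum. Map1lc3a (ENSMUSG00000027602, chromosome 2, 155276297 to 155278073) measured 18.7 and 86.8 TPM in preadipocytes, 57.3 and 64.5 TPM at MCE and 68.8 and 55.7 TPM after differentiation in shScram cells. In shFTO cells it stayed at 111 and 109 TPM in preadipocytes, 99.0 and 99.2 TPM at MCE and 111 and 107 TPM after differentiation. It was above every shScram library in all 6. The averaged difference was 0.97 ± 0.30 (adjusted p = 0.0299), passed under 9 of 20 settings (adjusted p 3.74e-08 to 0.0831) and was 0.62 without replicate 1 of shScram preadipocytes. In preadipocytes alone the difference was 1.42 ± 0.53 (adjusted p = 0.0719) with that library and 0.34 without it. Its paralog Map1lc3b, the usual marker of autophagosomes, ranged over 105 to 136 TPM and had an averaged difference of 0.058 ± 0.064 (adjusted p = 0.485). As a share of the family, Map1lc3b was 14.1% to 21.5% in shScram libraries and 12.3% to 13.6% in shFTO libraries, without overlap.

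**Figure D4:**
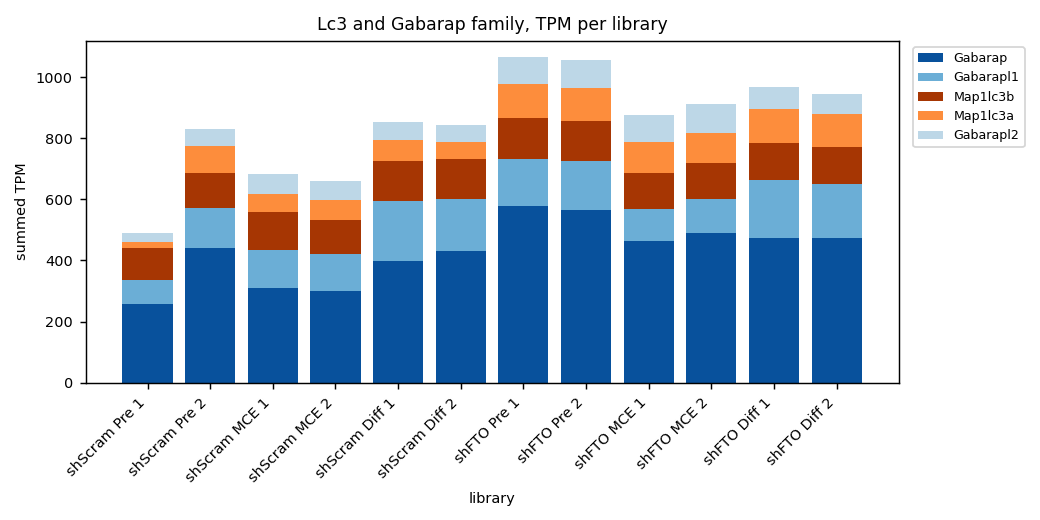
TPM of the 5 Lc3 and Gabarap genes stacked per library (horizontal axis, 12 libraries, vertical axis from 0). Gabarap is the tallest segment of each bar, replicate 1 of shScram preadipocytes has the shortest bar at 489 TPM, and the shFTO bars are taller than the shScram bars of the same stage.

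Gabarap itself measured 257 and 441 TPM in preadipocytes, 311 and 301 TPM at MCE and 397 and 432 TPM after differentiation in shScram cells. It measured 578 and 564 TPM in preadipocytes, 465 and 491 TPM at MCE and 474 and 473 TPM after differentiation in shFTO cells. The preadipocyte difference was 0.76 ± 0.21 (adjusted p = 0.0306, 0.37 without replicate 1 of shScram), and the averaged one was 0.53 ± 0.12 (adjusted p = 0.00824, 0.40 without it). Gabarapl2 was at 29.2 and 54.9 TPM in preadipocytes, 67.7 and 62.9 TPM at MCE and 61.2 and 57.3 TPM after differentiation in shScram cells. It was at 88.1 and 91.2 TPM in preadipocytes, 89.3 and 93.8 TPM at MCE and 69.4 and 67.5 TPM after differentiation in shFTO cells. Its difference was 1.14 ± 0.23 in preadipocytes (adjusted p = 0.0105, 0.70 without replicate 1 of shScram) and 0.61 ± 0.14 averaged (adjusted p = 0.00686, 0.46 without it). Of its 40-base stretches 10.1% occur in the pseudogene Gm3724 (mean 1.63 TPM). Gabarapl1 was at 78.5 and 129.8 TPM in preadipocytes, 124 and 121 TPM at MCE and 197 and 169 TPM after differentiation in shScram cells. It was at 153 and 163 TPM in preadipocytes, 104 and 109.6 TPM at MCE and 190.3 and 177 TPM after differentiation in shFTO cells, above shScram in preadipocytes, below it at MCE and overlapping after differentiation. The preadipocyte difference was 0.64 ± 0.21 (adjusted p = 0.0462, passed under 6 of 21 settings with adjusted p 1.19e-05 to 0.331), or 0.28 without replicate 1 of shScram.

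Of the receptors, Optn was higher in shFTO cells. Optn (ENSMUSG00000026672, chromosome 2, 5020642 to 5064051) was at 11.4 and 6.88 TPM in preadipocytes, 1.37 and 2.33 TPM at MCE and 3.13 and 3.40 TPM after differentiation in shScram cells. The shFTO cells had 9.31 and 8.52 TPM in preadipocytes, 3.18 and 4.28 TPM at MCE and 6.39 and 8.01 TPM after differentiation. The lines overlapped in preadipocytes and were apart at MCE and after differentiation. The difference was 0.94 ± 0.26 after differentiation (adjusted p = 0.0307), 0.89 without the doubtful shScram library (adjusted p = 0.142), and the call held under 12 of 21 settings (adjusted p 0.00319 to 0.184). At MCE it was 0.74 ± 0.26 (adjusted p = 0.0812), and averaged it was 0.56 ± 0.15 (adjusted p = 0.0150, 0.67 without replicate 1 of shScram preadipocytes). Sqstm1, the receptor that is itself degraded by autophagy, measured 403 and 1040.2 TPM in preadipocytes, 510.0 and 537 TPM at MCE and 479 and 428 TPM after differentiation in shScram cells. The shFTO libraries held 1115 and 1155 TPM in preadipocytes, 514 and 533 TPM at MCE and 429 and 419 TPM after differentiation. The lines nearly coincided at MCE. The averaged difference was 0.24 ± 0.20 (adjusted p = 0.353) and 0.011 without replicate 1 of shScram preadipocytes. Sqstm1 shares 580 of its 3356 exon bases with Mrnip on the other strand (mean 3.68 TPM). The related receptor Nbr1 ranged over 75.2 to 114 TPM, and its averaged difference was -0.0031 ± 0.10 (adjusted p = 0.982).

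On the lysosomal side, Lamp1 was lower in shFTO cells after differentiation. Lamp1 (ENSMUSG00000031447, chromosome 8, 13159161 to 13175338), whose promoter carried the 4 copies of CACGTG printed above, measured 1443 and 1368 TPM in preadipocytes, 676 and 623 TPM at MCE and 985 and 1018 TPM after differentiation in shScram cells. With the hairpin against Fto it measured 1462 and 1525 TPM in preadipocytes, 693 and 671 TPM at MCE and 666 and 667 TPM after differentiation. The difference was 0.088 in preadipocytes and 0.070 at MCE. After differentiation the lines were apart, and the difference was -0.59 ± 0.11 (adjusted p = 0.00665, -0.61 without the doubtful shScram library), with 18 of 21 settings past the threshold. Lamp2, the companion glycoprotein of the lysosomal membrane, measured 909.7 and 596 TPM in preadipocytes, 378 and 302 TPM at MCE and 579.5 and 661 TPM after differentiation in shScram cells. It measured 488 and 561 TPM in preadipocytes, 367 and 367 TPM at MCE and 543 and 556 TPM after differentiation in shFTO cells and was called at no stage (adjusted p = 0.0947, 0.762 and 0.611). Tfeb ranged over 1.85 to 11.7 TPM with differences of 0.91, -0.061 and -0.29 at the 3 stages (adjusted p = 0.0744, 0.939 and 0.609). In replicates 1 and 2 of shScram preadipocytes it was at 1.85 and 5.62 TPM, and without replicate 1 the first of these differences was 0.30.

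The second comparison followed the genes across the stages within each line. In shScram cells, 4 of 37 genes were higher at MCE than in preadipocytes and 7 (18.9%) were lower, with 12.2% and 26.9% over all genes tested. From MCE to differentiation 4 rose and 0 fell, with 20.0% and 5.22% over all genes. In shFTO cells, 1 rose and 7 fell in the step to MCE (8.80% and 19.9%), and 5 rose and 0 fell in the next step (20.2% and 6.48%). All genes shifted between the stages on this scale, with medians of -0.17 and 0.23 in shScram cells and -0.18 and 0.17 in shFTO cells. Some changes are therefore also given relative to these medians. Scaling the libraries by median ratios gave 8 rising and 5 falling genes in the first step of shScram cells, beside 19.6% and 18.0% of all genes, and 3 and 3 in that of shFTO cells, beside 13.6% and 14.4%. In the second step it gave 0 in shScram cells, beside 22.6% of all genes in either direction, and 2 rising and 2 falling in shFTO cells, beside 15.9% and 11.9%. At an unadjusted p under 0.05 there were 5 in that step of shScram cells, for which no share of all genes was computed. The median difference of the 37 genes in the step to MCE was -0.13 in shScram and -0.15 in shFTO cells, and under that scaling it turned to 0.078 and 0.070, while in the second step of shFTO cells it went from 0.18 to -0.0079. With replicate 1 of shScram preadipocytes left out, 18, 23, 17 and 19 genes were called in the 4 steps, beside 48.1%, 52.0%, 51.1% and 50.9% of all genes. Without replicate 1 of shScram after differentiation 2 were called in the second step of shScram cells, beside 13.8% of all genes.

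From preadipocytes to MCE, Lamp1, Optn, Uvrag and Atg3 fell in both lines. Except for Atg3, the levels are those given above. Lamp1 changed by -1.11 ± 0.11 in shScram cells (adjusted p = 0.000133, -0.94 relative to the median of all genes, -1.07 without replicate 1 of shScram preadipocytes) and by -1.13 ± 0.11 in shFTO cells (adjusted p = 0.000133, -0.95 relative to the median). In each line both preadipocyte libraries lay far above both MCE libraries. Optn changed by -1.82 ± 0.26 in shScram (adjusted p = 0.000816, -1.49 without that library) and by -1.08 ± 0.26 in shFTO cells (adjusted p = 0.0130). Uvrag changed by -0.91 ± 0.13 (adjusted p = 0.000907, -0.97 without it) and -1.23 ± 0.13 (adjusted p = 0.000189), and Atg3 by -0.78 ± 0.16 (adjusted p = 0.00560, -0.53 without it) and -0.58 ± 0.16 (adjusted p = 0.0251). Atg3 was at 92.2 and 64.9 TPM in shScram preadipocytes and 42.5 and 47.0 TPM at MCE, and at 71.4 and 75.2 and 49.2 and 48.3 TPM in shFTO cells. These falls, apart from that of Atg3 in shFTO cells (-0.40 relative to the median), also passed after scaling by median ratios.

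Other falls passed in 1 line. In shScram cells Lamp2 changed by -1.12 ± 0.20 (adjusted p = 0.00304, -0.82 without replicate 1 of shScram preadipocytes), Rb1cc1 by -1.0 ± 0.31 (adjusted p = 0.0304, -0.47 without it) and Atg4a by -0.85 ± 0.20 (adjusted p = 0.0107, -0.51 without it). Atg4a was at 26.8 and 16.3 TPM in replicates 1 and 2 of shScram preadipocytes. In shFTO cells Sqstm1 changed by -1.12 ± 0.34 (adjusted p = 0.0382), Atg14 by -0.51 ± 0.16 (adjusted p = 0.0416) and Becn1 by -0.40 ± 0.12 (adjusted p = 0.0308). Sqstm1 in shScram cells changed by -0.31 ± 0.34 (adjusted p = 0.499) with replicate 1 of the preadipocytes. Without it, when that group held 1 library, the change was -0.99. The median change of all genes in this step was -0.17 in shScram and -0.18 in shFTO cells. After scaling by median ratios the falls of Sqstm1, Atg14 and Becn1 in shFTO cells no longer passed. In shScram cells at most 1 of those of Lamp2, Rb1cc1 and Atg4a did. The calls of Rb1cc1, Sqstm1, Atg14 and Becn1 held under 13 of 21, 9 of 21, 7 of 21 and 11 of 21 settings. None of these shows that the lines differed in the step.

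The genes that rose to MCE were few. In shScram cells Atg101 rose by 1.40 ± 0.37 (adjusted p = 0.0167, 0.66 without replicate 1 of the preadipocytes), Atg7 by 0.99 ± 0.20 (adjusted p = 0.00547, 0.72 without it), Gabarapl2 by 0.69 ± 0.23 (adjusted p = 0.0440, 0.25 without it) and Atg12 by 0.61 ± 0.16 (adjusted p = 0.0162, 0.85 without it). Atg12, the ubiquitin-like partner of Atg5, was at 32.7 and 23.3 TPM in shScram preadipocytes and 45.9 and 39.8 TPM at MCE. In shFTO cells Pik3c3 rose by 0.54 ± 0.17 (adjusted p = 0.0373), from 15.6 and 15.3 TPM to 23.9 and 22.2 TPM. Atg101 in shFTO cells went from 54.3 and 52.1 to 111 and 111 TPM, a change of 1.04 ± 0.37 that did not pass (adjusted p = 0.0653). The call of Gabarapl2 held under 8 of 21 settings and that of Pik3c3 under 9 of 21.

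**Figure D5:**
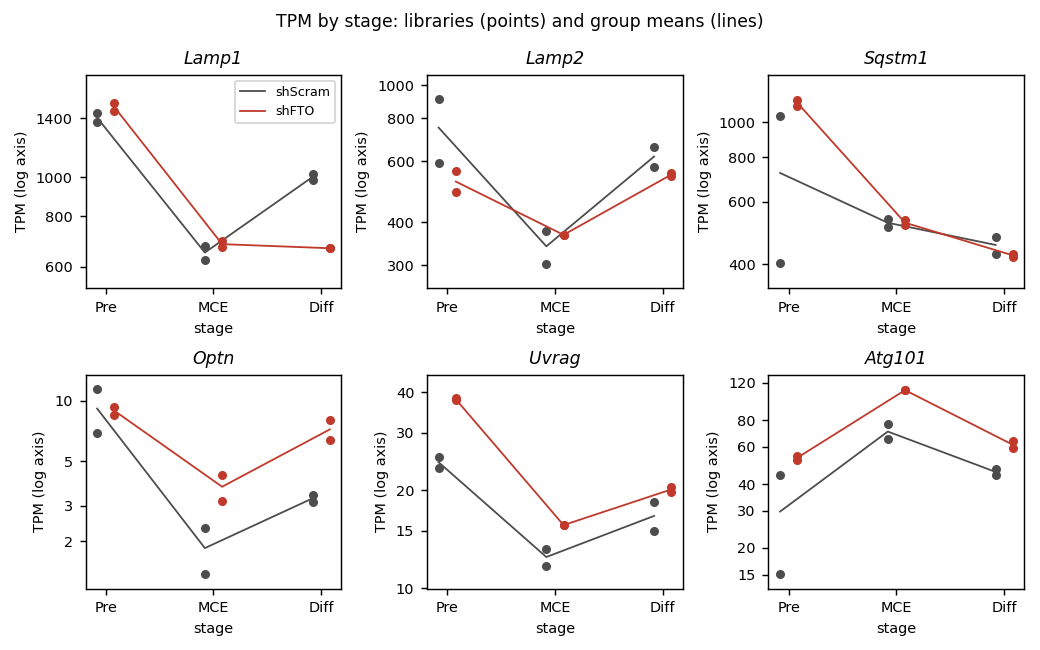
TPM (vertical axes, logarithmic) of 6 genes at the 3 stages (horizontal axes), libraries as points and group means as lines, shScram in grey and shFTO in red, n = 2 per group. Lamp1 falls from Pre to MCE in both lines and is higher again after differentiation in shScram cells, with 985 and 1018 TPM, while the shFTO libraries stay at 666 and 667 TPM.

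From MCE to differentiation the rises included lysosomal genes in shScram cells. Lamp1 rose by 0.62 ± 0.11 (adjusted p = 0.00500, 0.39 relative to the median of all genes) and Lamp2 by 0.87 ± 0.20 (adjusted p = 0.0148, 0.64 relative to it). In shFTO cells the same step was -0.033 ± 0.11 (adjusted p = 0.870) for Lamp1 and 0.58 ± 0.20 (adjusted p = 0.0641) for Lamp2. Atg4a rose in both lines, by 0.87 ± 0.20 in shScram (adjusted p = 0.0150) and 0.67 ± 0.20 in shFTO cells (adjusted p = 0.0393), from 11.1 and 11.2 to 21.0 and 21.4 TPM and from 13.4 and 14.5 to 21.9 and 23.5 TPM. Wipi1 also rose in both, by 0.35 ± 0.10 (adjusted p = 0.0292) and 0.58 ± 0.10 (adjusted p = 0.00285), though relative to the median the values were 0.12 and 0.41. In shFTO cells Gabarapl1 rose by 0.78 ± 0.21 (adjusted p = 0.0221), Optn by 0.80 ± 0.26 (adjusted p = 0.0485) and Atg14 by 0.56 ± 0.16 (adjusted p = 0.0314). After scaling by median ratios the 4 rises of shScram cells no longer passed, and of those in shFTO cells Gabarapl1 and Wipi1 did. Without replicate 1 of shScram after differentiation Lamp1 and Lamp2 had adjusted p of 0.0305 and 0.0483 in shScram cells, within ranges of 6.13e-05 to 0.0694 and 0.000155 to 0.119, while Atg4a and Wipi1 no longer passed (0.0689 and 0.136, ranges 8.17e-05 to 0.123 and 0.00107 to 0.554). In shFTO cells the calls of Optn, Atg4a and Atg14 held under 4 of 21, 7 of 21 and 13 of 21 settings.

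Whether the lines differed in these steps was tested directly. In limma's contrast of the step to MCE 0 of 37 genes passed after adjustment, beside 5.11% of all genes. At an unadjusted p under 0.05 there were 3 of 37, beside 3582 of all 15968 genes tested. In that of the step from MCE to differentiation 0 passed, beside 2.49% of all genes (1.11% without replicate 1 of shScram after differentiation, with 0 of 37). Unadjusted, 1 of 37 had a p under 0.05, beside 2437 of all 15968 genes tested. That 1 gene was Lamp1, with a difference between the lines of -0.66 ± 0.16 (unadjusted p = 0.00278, adjusted p = 0.0769). For Atg7 the step to MCE differed by -0.87 ± 0.29 (adjusted p = 0.125), and for Atg5 by 0.42 ± 0.26 (adjusted p = 0.344). Without replicate 1 of shScram preadipocytes 3 genes passed in the first contrast, Atg9a (0.57), Atg12 (-0.70) and Gabarapl1 (-0.48), beside 14.1% of all genes. In the second 4 passed, Pik3c3 (-0.46), Atg10 (-0.72), Gabarap (-0.45) and Lamp1 (-0.66), beside 17.1%. The adjusted p of these 7 values without the library lay between 0.00176 for Lamp1 and 0.0421 for Pik3c3, and over all settings the range was 0.00176 to 0.298 for Lamp1.

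The wider pathway was followed through 4 lists that leave out the 37 genes. Of 43 tested genes for lysosomal enzymes and the proton pump, 21 were higher and 3 lower in shFTO cells averaged over the stages, with a median log2 difference of 0.22 beside 0.060 over all genes. Of all genes 24.5% were higher and 18.3% lower. With replicate 1 of shScram preadipocytes left out 27 and 5 were called, beside 56.6% of all genes. In preadipocytes 13 were higher and 0 lower (all genes, 15.9% and 12.3%). After differentiation 4 were higher and 2 lower, below the 11.9% and 9.31% of all genes, and without replicate 1 of shScram preadipocytes 13 and 11 were, when 45.7% of all genes were called. The summed level was 11937 to 12075 TPM in shFTO preadipocytes and 6972 to 9905 TPM in shScram preadipocytes, of which the lower value was that of replicate 1. Among the genes named by rule, the protease Ctsl averaged 527 ± 25.1 TPM (SD, n = 2) after differentiation in shScram libraries, beside 1046 ± 3.33 TPM for shFTO (log2 difference 0.99, limma adjusted p = 0.000646). The sulfatase Galns was higher (1.08, adjusted p = 0.00543), and the ceramidase Asah1 and the pump subunit Atp6v1b2 were lower (-0.54 and -0.50, adjusted p = 0.0276 and 0.0375). Averaged over the stages, Naglu and Sgsh, enzymes of heparan sulfate breakdown, were higher (0.81 and 0.68, adjusted p = 0.0424 and 0.00865). Their log2 differences without replicate 1 of shScram preadipocytes were 0.48 and 0.50. Asah1 and Atp6v1b2 after differentiation and Naglu averaged over the stages no longer passed without replicate 1 of shScram after differentiation. Across the stages, 20 of 43 genes were lower in the step to MCE in shScram cells and 25 of 43 in shFTO cells (26.9% and 19.9% of all genes), and 18 and 14 were higher in the next step (20.0% and 20.2%). These 4 counts were 31, 35, 31 and 26 with replicate 1 of shScram preadipocytes left out, when 48.1%, 51.1%, 52.0% and 50.9% of all genes were called in either direction. After scaling by median ratios 9 rose and 1 fell in the later step of shScram cells, when 22.6% of all genes were called in either direction, and 10 rose and 5 fell in that of shFTO cells (all genes, 15.9% and 11.9%).

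Of 26 genes of autophagosome maturation and regulation, 10 were higher and 1 lower in shFTO cells averaged over the stages (all genes, 24.5% and 18.3%), or 12 and 6 without replicate 1 of shScram preadipocytes (all genes, 56.6% called). Vmp1, an endoplasmic reticulum scramblase that acts in autophagosome formation, averaged 276 ± 29.3 TPM after differentiation in shScram libraries, beside 649 ± 8.22 TPM for shFTO (log2 difference 1.23, adjusted p = 0.000906). Trp53inp2, which binds Lc3 proteins, had an averaged difference of 1.37 (adjusted p = 0.00015, 1.20 without that library), whereas its relative Trp53inp1 had -0.98 (adjusted p = 0.000347, -0.88 without it). The apoptosis and Becn1 inhibitor Bcl2 and the tether Epg5 were higher averaged over the stages (0.82 and 0.31, adjusted p = 0.000229 and 0.0416). Their log2 differences without replicate 1 of shScram preadipocytes were 0.85 and 0.24. Zkscan3, a repressor of autophagy genes, was lower after differentiation (-0.46, adjusted p = 0.0181). Epg5 and Zkscan3 no longer passed without replicate 1 of shScram after differentiation.

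Of 18 tested receptors other than the 3 above, 4 were higher and 3 lower averaged over the stages, beside 24.5% and 18.3% of all genes (5 and 7 without replicate 1 of shScram preadipocytes, when 56.6% of all genes were called). Ncoa4, the receptor for ferritin, was lower after differentiation, at 39.8 ± 5.31 TPM in shFTO against 77.7 ± 0.829 TPM in shScram cells (-0.95, adjusted p = 0.00242), and the mitochondrial receptor Bnip3 was higher (0.72, adjusted p = 0.00316). Bcl2l13 was lower at that stage (-0.48, adjusted p = 0.0386). Averaged over the stages Fundc1 was lower (-0.47, adjusted p = 0.0359), and Tollip and the mitophagy kinase Pink1 were higher (0.55 and 0.54, adjusted p = 0.000992 and 0.0104). In this order, the log2 differences without replicate 1 of shScram preadipocytes were -0.30, 0.48 and 0.41. Bcl2l13 and Fundc1 no longer passed without replicate 1 of shScram after differentiation.

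Of 29 tested genes of mTORC1 and AMPK regulation, 5 were higher and 7 lower averaged over the stages, beside 24.5% and 18.3% of all genes (8 and 9 without replicate 1 of shScram preadipocytes, when 56.6% of all genes were called). Sesn1, a stress-induced inhibitor of mTORC1 signalling, and the mTOR inhibitor Deptor were lower averaged over the stages (-1.06 and -1.18, adjusted p = 6.59e-06 and 6.5e-05). Sesn2 and the AMPK-activating kinase Stk11 were higher (0.71 and 0.69, adjusted p = 0.0306 and 0.0279). In this order, the log2 differences without that library were -1.05, -1.13, 0.45 and 0.45. After differentiation the genes of the AMPK subunit Prkab2, the sestrins Sesn3 and Sesn1 and the mTORC1 activator Rheb were lower (-0.81, -0.63, -0.62 and -0.37, adjusted p = 0.00283, 0.0262, 0.0054 and 0.042). Sesn2 averaged over the stages and Sesn3 and Rheb after differentiation no longer passed without replicate 1 of shScram at that stage.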

How the data were processed

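Paired reads were trimmed by the authors (Trim Galore 0.6.5) and mapped on GRCm38 under Ensembl gene models (HISAT2 2.1.0), and gene levels were estimated (StringTie 2.1.4) and deposited as TPM. For m6A-enriched RNA and its input, the study's methods describe a selection of 40 to 60 bases before poly(A) tailing and reverse transcription. The libraries of the hairpin lines are not described separately there. The authors used DESeq2 1.30.1 for their own gene calls. Here the 12 libraries were grouped by title. TPM keeps no depth, so log2(TPM + 1) was tested with limma 3.58.1 in R 4.3.3 (1 mean per group over all 12 libraries, 6 residual degrees of freedom, eBayes with a trend, two-sided, Benjamini-Hochberg adjustment), in 15968 genes that reached a TPM of 1 in 2 or more libraries. All 37 genes passed this filter. The log2(TPM + 1) scale understates changes of genes with low TPM. Values are given for replicate 1 and then replicate 2. The script was tested on simulated data.

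The members and lists were chosen with earlier results of these data known. Values in every library were given for Atg5 and Atg7, for the 4 highest and 4 lowest called members of each knockdown comparison and for the 3 highest and 3 lowest of each stage step, and, where a sentence needed them, for others. From the other lists the 2 highest and 2 lowest called genes with a mean TPM of at least 5 were named. Alternatives were another pseudocount (0.1), other filters and scalings, another estimate of spread, the libraries in the fit, the replicate number as a block and each library left out. Leaving out both doubtful libraries, and the lists and their named genes without either of them, were added after the data were seen. Python 3.11.15 with pandas 2.3.3, numpy 2.4.6 and scipy 1.17.1 was used, with GENCODE M21 for coordinates and overlaps (99.5% of identifiers found) and RefSeq for promoters.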

Additional observations from a re-analysis of the deposited data

How the results depend on the processing

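With 2 libraries per group and no depth, single calls among the 37 genes were fragile, while none changed direction in any setting. Of 1082 recomputed values of those named, 812 stayed on their side of the threshold, 259 no longer passed and 11 came to pass. Leaving out 1 library at a time gave 11 to 29 called genes for the knockdown averaged over stages, 1 to 31 in preadipocytes, 1 to 20 at MCE and 2 to 16 after differentiation. For the steps it gave 6 to 31 and 0 to 23 in shScram cells, 2 to 17 and 1 to 19 in shFTO cells, and 0 to 29 and 0 to 4 for the differences between the lines, with Fto at -3.12 to -3.07 (log2). The highest counts came from leaving out a library of shScram preadipocytes. Without both doubtful libraries 20 genes were called at MCE, 13 after differentiation, 18 and 19 in the steps of shScram cells, 17 and 19 in those of shFTO cells, and 3 and 2 for the differences between the lines. Fitting the libraries of a comparison alone gave 0 in preadipocytes (4 at an unadjusted p under 0.05), 15 at MCE, 12 after differentiation, 0 (6 unadjusted) and 15 in shScram steps, 16 and 19 in shFTO steps, and 4 for the difference between the lines in the later step. Without a filter 5 genes were called in preadipocytes, and 5 and 2 in the shFTO steps. Quantile normalization gave 1 in the later shScram step and 5 and 2 in the shFTO steps, and median-ratio scaling gave 0 in the later shScram step. The cause of these changes was not tested. For most settings in this section the share of all genes called is not given. These counts, adjusted or unadjusted, therefore cannot be read as particular to the 37 genes. Libraries of equal replicate number deviated together little, with 2 of 15 correlations of deviations between groups over 0.1 (-0.29 to 0.17). This cannot show that they were prepared unpaired. With the replicate number as a block 14, 6, 3 and 4 genes were called for the knockdown (averaged, preadipocytes, MCE, differentiation), 10 and 3 in shScram steps, 6 and 3 in shFTO steps, and 0 and 0 for the differences between the lines.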
